A study of Mus musculus with 16 samples.

Results

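The p53 pathway was followed through 10 of its genes in mouse embryonic stem cells that carried a hairpin against Sirt1 or a control hairpin, with and without retinoic acid (RA). They are Trp53, the gene of p53, and its targets Mdm2, Cdkn1a, Gadd45a, Ccng1, Bbc3, Bax, Trp53inp1, Sesn1 and Sesn2. Every probe that the array files name for one of these 10 genes was taken, which gave 17 probes on 53 spots out of 41174 probes that are not controls. All 17 probes passed the filter on dim signals, which 26375 probes passed, and 18282 genes were tested. Trp53, Cdkn1a, Bax and 1 of the 2 Mdm2 probes were spotted 10 times each.

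The p53 protein is a transcription factor that binds DNA as a tetramer, at sites built of 2 similar half-sites, and raises genes of cell-cycle arrest, cell death, DNA repair and metabolism after stress. Mdm2, itself a target, marks p53 for degradation and so closes a feedback loop. SIRT1 is an NAD-dependent deacetylase that removes acetyl groups from histones and from p53, and acetylation is one of the marks that tune how p53 acts. In embryonic stem cells p53 has been linked to the control of differentiation as well as to the DNA damage response.

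The cells were E14, an established line of mouse embryonic stem cells, transduced with a lentiviral vector for stable expression of a control shRNA (sh-Control) or a SIRT1 shRNA (sh-SIRT1). All groups grew in serum medium with the cytokine that the labels call leukocyte inhibitory factor, and received the vehicle ethanol or 20 nM RA for 2 days. There were 3 arrays of each line in vehicle; under RA there were 4 of the control line and 6 of the knockdown line. Each array carried 1 sample and 1 dye. The labels give no number of clones and only 1 hairpin per arm, so what the hairpin did and what set the lines apart beforehand cannot be told apart. In RNA from a whole culture, fewer cells of a type and less RNA per cell cannot be told apart either.

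Sirt1 was checked first. In vehicle it lay at 3.52 to 3.85 in sh-Control cells and at 1.82 to 1.88 in sh-SIRT1 cells, and under RA at 3.28 to 3.48 and at 0.92 to 1.59. These values, like all levels here, are the log2 signal minus the array's own 75th percentile of log2 signals. All sh-SIRT1 arrays were below all sh-Control arrays, at 28.6% of the control level in vehicle (limma adjusted p = 4.12e-05) and 22.1% under RA (limma adjusted p = 2.58e-07).

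Some arrays stood apart before any member was looked at. Ddx3y, a Y-linked gene, was at 0.22 on sh-Control RA array 1 but at -6.92, -8.01 and -8.13 on sh-Control RA arrays 2, 3 and 4, where its probe was not well above background, between 0.41 and 0.94 on the sh-SIRT1 RA arrays, and between 0.32 and 1.60 on the vehicle arrays of both lines. For this gene sh-Control RA arrays 2 to 4 were thus the exception among all 16 arrays, and array 1 was the sh-Control RA array that resembled the other groups. In every comparison that uses the sh-Control RA group, RA or the hairpin cannot be told apart from whatever set arrays 2 to 4 apart. This holds for RA in sh-Control cells, for the lines under RA and for the difference of the RA effects. The design text speaks of duplicates without saying which arrays these are. The SD of the log2 difference over all genes was 0.214 between sh-Control RA arrays 3 and 4, 0.324 between sh-SIRT1 RA arrays 1 and 2, and 0.269 to 0.363 among sh-SIRT1 RA arrays 3 to 6, against 0.528 to 0.736 for the other pairs of RA arrays within a group. In vehicle, arrays 2 and 3 differed by 0.321 in the control line and by 0.293 in the knockdown line, and other pairs by 0.517 to 0.556. The p-values reflect how far the arrays of a group spread, which may be technical spread, and they are too small if close arrays share a culture. Results are given with all arrays. Where sh-Control RA array 1 alone in its group ends a call, the value is given beside the gene or in the closing section on processing. That arm holds 1 array, whose spread is taken from the other groups. The differences themselves moved there too. Between the lines under RA, Trp53 went from -0.54 to -0.22 and Cdkn1a from 0.72 to 0.36, while Gadd45a went from -0.95 to -1.125. Why calls were lost there was not tested. A further setting averaged arrays closer than 0.4 to 1 unit each. Averaged so, Sirt1 was at -1.86 in vehicle (limma adjusted p = 0.12) and -2.10 under RA (limma adjusted p = 0.0533) and lost its call too.

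Markers of cell state moved with the treatment and not evenly over arrays. All 9 measured pluripotency markers (such as Pou5f1 and Sox2) were well above background on all 16 arrays, with a mean level of 4.89 to 5.10 in vehicle, 4.45 to 4.97 in sh-Control RA and 4.07 to 4.60 in sh-SIRT1 RA. The mean of 10 primitive endoderm markers (such as Gata6 and Foxa2) was between -3.51 and -2.96 in vehicle, 1.90 on sh-Control RA array 1, between -1.38 and -0.29 on the other sh-Control RA arrays, and between -0.62 and 0.27 in sh-SIRT1 RA. The mean of 8 fibroblast (feeder) markers was between -2.70 and -1.63 in vehicle, between -1.31 and 1.11 in sh-Control RA, and between -0.09 and 1.13 in sh-SIRT1 RA. The part of these cell states in the results on p53 genes was not tested.

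The promoters are shown for the sequence that p53 binds in general; binding was not measured here, and no relation between these matches and expression was tested. RefSeq windows of build GRCm38.p6, of which the 250 bases before each transcription start were searched on the gene's strand (the motif reads alike on both strands), covered 9 of the 10 members with 13 starts; Trp53inp1 was not in that table. The p53 half-site consensus occurred before the start in 7.13% of all 32851 windows. It occurred in 7 of the 13 member windows, 1 each for Trp53, Mdm2, Cdkn1a, Bax, Sesn1, Gadd45a and Ccng1. A pair of half-sites with a spacer of 0 to 13 bases, the form that a p53 tetramer binds, occurred in 0.0639% of all windows (21 windows of 18 genes), and among the 9 members searched only before the upstream start of Cdkn1a. The 250 bases before that start are printed with the 2 half-sites in capitals.
Cdkn1a (chr17:29090729-29090978, plus strand): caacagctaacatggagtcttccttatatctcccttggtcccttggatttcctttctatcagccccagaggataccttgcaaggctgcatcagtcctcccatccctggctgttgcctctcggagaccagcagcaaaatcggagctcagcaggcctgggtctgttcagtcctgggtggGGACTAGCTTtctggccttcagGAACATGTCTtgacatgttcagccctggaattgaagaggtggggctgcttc
The first half-site begins 73 bases and the second 51 bases before the start, with 12 bases between them. The second is followed directly by a decamer that departs from the consensus at 1 base, so that the 20 bases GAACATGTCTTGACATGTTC also read nearly as a full site. The downstream Cdkn1a start, 2790 bases away, held no half-site in its window.

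The single half-sites of the other members are printed within 40 bases each, again in capitals. They stand for matches of letters only, with no measurement of p53 binding behind them.
Trp53 (chr11:69580269-69580308, plus strand): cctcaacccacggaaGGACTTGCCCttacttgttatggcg
Mdm2 (chr10:117710920-117710959, minus strand): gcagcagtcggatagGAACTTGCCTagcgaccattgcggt
Gadd45a (chr6:67037423-67037462, minus strand): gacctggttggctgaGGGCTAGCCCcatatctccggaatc
Ccng1 (chr11:40755447-40755486, minus strand): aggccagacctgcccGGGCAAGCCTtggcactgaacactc
Bax (chr7:45467075-45467114, minus strand): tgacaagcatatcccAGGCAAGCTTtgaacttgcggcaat
Sesn1 (chr10:41887251-41887290, plus strand): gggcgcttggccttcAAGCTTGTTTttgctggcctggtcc
The half-site of Gadd45a begins 40 bases before its start, that of Trp53 75, those of Ccng1 and Mdm2 185 and 186, that of Bax 201 and that of the second Sesn1 start 173. The windows of the 3 Bbc3 starts, of Sesn2 and of the first Sesn1 start held none.

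Read by the brightest probe of each gene, Sesn1 rose and Bbc3, Bax, Sesn2 and Trp53 fell under RA in both lines, Cdkn1a rose and Mdm2 and Ccng1 fell under RA in sh-SIRT1 cells, and no member differed between the lines in vehicle by the test over all genes. By the same probes, Cdkn1a was higher and Trp53, Gadd45a and Ccng1 were lower in sh-SIRT1 than in sh-Control cells under RA; the dimmer Ccng1 probe was higher, and the dimmer Trp53 probe did not pass. Among the 10 members, only Cdkn1a passed the test of the difference between the RA effects of the lines.

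**Figure D1:**
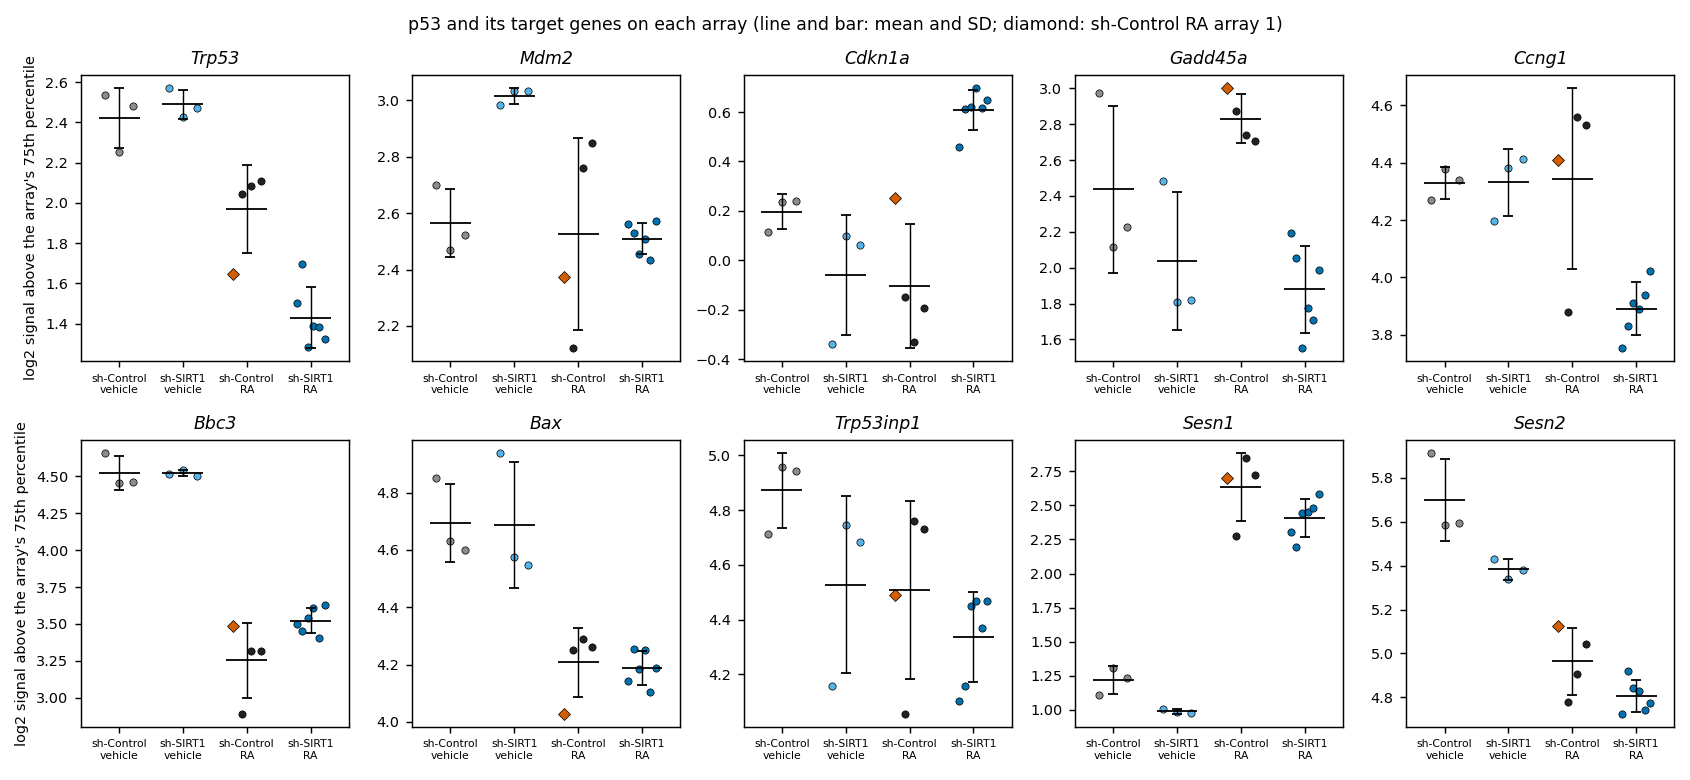
Level of the 10 genes on each of the 16 arrays (y axis: log2 units above the array's 75th percentile; x axis: group), with the mean as a line, the SD as a bar and sh-Control RA array 1 as a diamond. Cdkn1a is highest on the 6 sh-SIRT1 RA arrays (0.46 to 0.70), Sesn1 is higher on all RA arrays (from 2.19) than on all vehicle arrays (to 1.31), and the diamond lies apart for Trp53 (1.65) and Bax (4.03).

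Trp53 itself was measured at 2.54, 2.25 and 2.48 on the sh-Control vehicle arrays and at 2.57, 2.43 and 2.47 on the sh-SIRT1 vehicle arrays. Under RA it was at 1.65, 2.04, 2.08 and 2.11 in sh-Control cells and, over the 6 sh-SIRT1 arrays, at 1.28 (lowest), 1.38 (median) and 1.70 (highest). The vehicle groups overlapped, all RA arrays were below all vehicle arrays, and sh-Control RA array 1 lay inside the range of the sh-SIRT1 RA arrays. RA lowered Trp53 by a log2 difference of -0.45 ± 0.13 (SE; limma adjusted p = 0.00944) in sh-Control and -1.06 ± 0.12 (limma adjusted p = 4.19e-06) in sh-SIRT1 cells, to 73.0% and 47.9% of the vehicle level. Between the lines the difference was 0.07 ± 0.14 in vehicle (limma adjusted p = 0.819) and -0.54 ± 0.11 under RA (limma adjusted p = 0.00318). The RA effects differed by -0.61 ± 0.17, which did not pass the threshold (limma adjusted p = 0.0678). With sh-Control RA array 1 alone in its group the difference between the lines under RA was -0.22 (limma adjusted p = 0.394), and without that array it was -0.65 (limma adjusted p = 0.000547).

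A dimmer Trp53 probe did not follow this pattern. The brighter probe begins with the 30 bases in the first line (build mm7, chr11:69671206-69671265, plus strand) and the dimmer one with those in the second (chr11:69662031-69662089); both are shown because the fall of Trp53 rests on which of them is read.
Trp53 brighter probe: accgccgtacagaagaagaaaatttccgca
Trp53 dimmer probe: gcattcaggccctcatcctcctccttccca
Its level was 0.19, 0.00 and 0.06 in sh-Control vehicle, 0.18, -0.38 and -0.41 in sh-SIRT1 vehicle, -0.10, -0.20, -0.27 and -0.32 in sh-Control RA, and between -0.39 and 0.05 in sh-SIRT1 RA. All groups but sh-Control vehicle against sh-Control RA overlapped. The dimmer probe differed by -0.31 ± 0.15 (limma adjusted p = 0.101) between RA and vehicle in sh-Control cells, by -0.03 ± 0.13 (limma adjusted p = 0.867) in sh-SIRT1 cells and by -0.01 ± 0.12 (limma adjusted p = 0.963) between the lines under RA. Where the exons lie on mm7 was not analysed here.

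Cdkn1a encodes p21, an inhibitor of cyclin-dependent kinases and a classical p53 target. Its level was 0.12, 0.24 and 0.24 in sh-Control vehicle, -0.34, 0.10 and 0.06 in sh-SIRT1 vehicle, and 0.25, -0.15, -0.33 and -0.19 in sh-Control RA. The 6 sh-SIRT1 RA arrays gave 0.46 (lowest), 0.62 (median) and 0.70 (highest). Every sh-SIRT1 RA array was above every other array, and the next was sh-Control RA array 1. In sh-SIRT1 cells RA raised Cdkn1a by 0.67 ± 0.12 (limma adjusted p = 0.000337), and in sh-Control cells the difference was -0.30 ± 0.13 (limma adjusted p = 0.0747). The 2 RA effects differed by 0.97 ± 0.18 (95% interval 0.59 to 1.36, limma adjusted p = 0.0123). Under RA the sh-SIRT1 level was 164% of the sh-Control level, a difference of 0.72 ± 0.11 (limma adjusted p = 0.000776). In vehicle the groups did not overlap, but the difference of -0.26 ± 0.14 did not pass (limma adjusted p = 0.298).

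The Cdkn1a difference varied with the sh-Control RA arrays used. With array 1 alone in its group, the difference between the lines under RA was 0.36 (limma adjusted p = 0.155) and the difference of the RA effects 0.62 (limma adjusted p = 0.141). Without array 1 they were 0.83 (limma adjusted p = 0.000106) and 1.09 (limma adjusted p = 0.00122). On single slides, which hold 4 arrays each, the difference under RA was 1.03, 0.79 and 0.30, the last on the slide with array 1. The 10 spots of the Cdkn1a probe had an SD of 0.02 to 0.06 within an array, against 0.07 to 0.25 between arrays of a group.

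Gadd45a, a stress-induced protein that acts in growth arrest and DNA demethylation, was at 2.97, 2.11 and 2.23 in sh-Control vehicle and at 2.48, 1.81 and 1.82 in sh-SIRT1 vehicle. Array 1 was the highest of each vehicle group. Under RA it was at 3.00, 2.87, 2.74 and 2.71 in sh-Control cells and at 1.55 (lowest), 1.88 (median) and 2.20 (highest) in sh-SIRT1 cells. The lines did not overlap under RA, where the sh-SIRT1 level was 51.7% of the control level, a difference of -0.95 ± 0.18 (limma adjusted p = 0.00284), with -0.96, -1.08 and -0.91 on the 3 slides that held both lines. In vehicle the difference was -0.40 ± 0.23 (limma adjusted p = 0.332). Arrays were also paired by replicate number, as a replicate block, a pairing taken from these data and not from a stated design. With that block the vehicle difference of -0.40 passed (limma adjusted p = 0.0286). So did the difference of the RA effects, -0.54 (limma adjusted p = 0.0448), which was -0.55 ± 0.30 without the block (limma adjusted p = 0.321). Because the pairing was found in the same values, these 2 results are no separate support. Neither line's own RA effect passed, at 0.39 ± 0.22 for sh-Control and -0.16 ± 0.20 for sh-SIRT1 (limma adjusted p = 0.153 and 0.519). With sh-Control RA array 1 alone, the difference in Gadd45a under RA was larger, at -1.12, but missed the threshold with 1 array in that arm (limma adjusted p = 0.0561).

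Mdm2, the ubiquitin ligase of p53, was at 2.70, 2.47 and 2.52 in sh-Control and at 2.98, 3.04 and 3.03 in sh-SIRT1 cells in vehicle, with no overlap. That difference, 0.45 ± 0.15, did not pass the test over all genes (limma adjusted p = 0.076; unadjusted p = 0.00882). Under RA it was at 2.37, 2.12, 2.76 and 2.85 in sh-Control cells and between 2.43 and 2.57 in sh-SIRT1 cells, so that the sh-SIRT1 arrays lay inside the sh-Control range (difference -0.02 ± 0.12, limma adjusted p = 0.94). RA lowered Mdm2 by -0.51 ± 0.13 in sh-SIRT1 cells (limma adjusted p = 0.00386), to 70.4% of vehicle, and gave -0.04 ± 0.14 in sh-Control cells (limma adjusted p = 0.838). Its other probe gave -0.49 ± 0.14 (limma adjusted p = 0.00654) and 0.09 ± 0.15 (limma adjusted p = 0.647) for the same 2 comparisons. The difference between these RA effects was -0.47 ± 0.19 and did not pass (limma adjusted p = 0.183).

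Ccng1 encodes cyclin G1, a target of p53 that acts on Mdm2. Its brighter probe was between 4.27 and 4.38 in sh-Control vehicle, between 4.198 and 4.41 in sh-SIRT1 vehicle, at 4.41, 3.88, 4.56 and 4.53 in sh-Control RA and between 3.75 and 4.02 in sh-SIRT1 RA. The sh-SIRT1 RA arrays were the low group, with sh-Control RA array 2 among them. The difference between the lines under RA was -0.45 ± 0.12 (limma adjusted p = 0.0136) and the RA effect in sh-SIRT1 cells -0.44 ± 0.13 (limma adjusted p = 0.00839).

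The dimmer Ccng1 probe gave the opposite sign under RA. The first 30 bases of both probes are printed because the call for this gene rests on the choice between them (build mm7, minus strand, chr11:40693768-40693827 and chr11:40691782-40691841).
Ccng1 brighter probe: tcagaagttgaaatggattgtgtctggacg
Ccng1 dimmer probe: agaaataaaattgctgagtttatctgcaaa
The dimmer probe was at 2.88, 2.67, 3.03 and 3.05 in sh-Control RA and between 2.98 and 3.53 in sh-SIRT1 RA, a difference of 0.35 ± 0.11 (limma adjusted p = 0.0338). RA lowered it by -0.37 ± 0.13 in sh-Control cells (limma adjusted p = 0.0322), where the brighter probe gave 0.02 ± 0.14. In sh-SIRT1 cells, where the brighter probe fell under RA, the dimmer probe gave -0.11 ± 0.12 and did not pass (limma adjusted p = 0.449). Averaged over both probes, the difference between the lines under RA was -0.05 (limma adjusted p = 0.788). No direction for Ccng1 as a gene follows from these 2 probes.

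**Figure D2:**
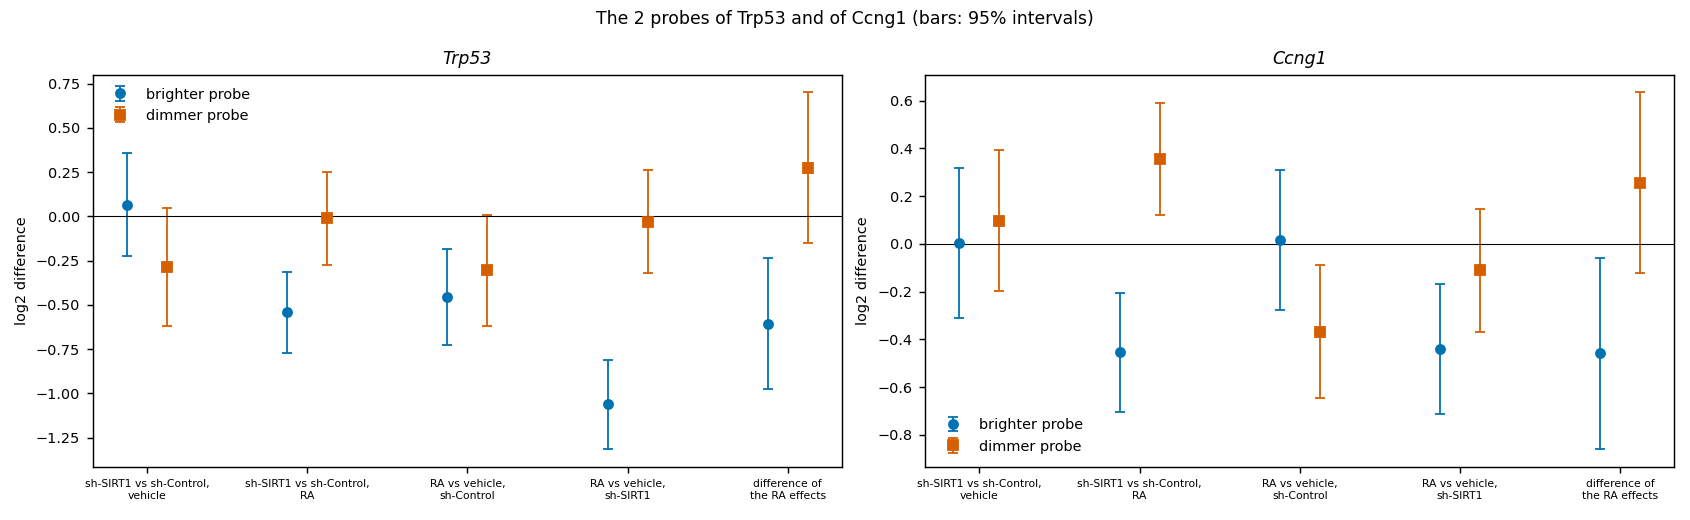
Log2 differences of the brighter (circle) and the dimmer probe (square) of Trp53 and of Ccng1 in the 5 comparisons, with 95% intervals. Under RA the probes of Trp53 lie at -0.54 and -0.01 and those of Ccng1 at -0.45 and 0.35.

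The 2 members that drive cell death through mitochondria fell under RA in both lines. Bbc3 encodes PUMA, a BH3-only protein that frees the pore former BAX. It was at 4.66, 4.45 and 4.46 in sh-Control vehicle and between 4.501 and 4.54 in sh-SIRT1 vehicle, against 3.48, 2.89, 3.32 and 3.32 in sh-Control RA and 3.41 to 3.62 in sh-SIRT1 RA. All RA arrays were below all vehicle arrays. RA changed Bbc3 by -1.27 ± 0.12 in sh-Control cells (limma adjusted p = 1.59e-06), to 41.4% of vehicle, and lowered it in sh-SIRT1 cells too (95% interval -1.23 to -0.77, limma adjusted p = 3.65e-06). Under RA the lines differed by 0.27 ± 0.10, which did not pass (limma adjusted p = 0.0709).

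Bax was at 4.85, 4.63 and 4.60 in sh-Control vehicle and at 4.94, 4.58 and 4.55 in sh-SIRT1 vehicle. Array 1 was again the highest of each vehicle group. Under RA it was at 4.03, 4.25, 4.29 and 4.26 in sh-Control and between 4.10 and 4.26 in sh-SIRT1 cells, below all vehicle arrays. The fall was -0.49 ± 0.11 (limma adjusted p = 0.00197) and -0.50 ± 0.10 (limma adjusted p = 0.000583), and the lines differed by -0.02 ± 0.09 under RA (95% interval -0.21 to 0.17) and -0.01 ± 0.11 in vehicle (-0.25 to 0.24).

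Trp53inp1, a p53-induced protein of stress response and autophagy, was between 4.71 and 4.96 in sh-Control vehicle, at 4.16, 4.74 and 4.68 in sh-SIRT1 vehicle, at 4.49, 4.06, 4.76 and 4.73 in sh-Control RA and between 4.10 and 4.47 in sh-SIRT1 RA. No comparison passed for this probe; the largest difference, RA in sh-Control cells, was -0.36 ± 0.18 (limma adjusted p = 0.11). The dimmer Trp53inp1 probe fell under RA in sh-Control cells by -0.40 ± 0.13 (limma adjusted p = 0.0173). It is a repeat within itself: 33 of its last 34 bases equal those 26 bases before.

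The sestrins, stress-induced proteins that restrain mTORC1 signalling and limit oxidative damage, went opposite ways under RA. Sesn1 was at 1.11, 1.31 and 1.24 in sh-Control vehicle, at 1.01, 0.98 and 0.98 in sh-SIRT1 vehicle, at 2.70, 2.28, 2.85 and 2.72 in sh-Control RA and between 2.19 and 2.58 in sh-SIRT1 RA. Every RA array was above every vehicle array. RA raised Sesn1 by 1.42 ± 0.13 in sh-Control cells (limma adjusted p = 1.03e-06) and 1.42 ± 0.12 in sh-SIRT1 cells (limma adjusted p = 2.84e-07), 267.5% of the vehicle level in each, and the 95% interval of the difference between them ran from -0.37 to 0.37. Its 2 other probes rose by 1.37 to 1.74. Between the lines under RA the brightest probe gave -0.23 ± 0.11 (limma adjusted p = 0.148), or -0.29 with the replicate block (limma adjusted p = 0.0322), while the other 2 gave -0.43 ± 0.08 (limma adjusted p = 0.00261) and -0.37 ± 0.10 (limma adjusted p = 0.0142). The first of these 2 spans 4163 bases of mm7 for its 60 bases.

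Sesn2 was at 5.91, 5.59 and 5.596 in sh-Control vehicle, at 5.43, 5.34 and 5.38 in sh-SIRT1 vehicle, at 5.13, 4.78, 4.91 and 5.04 in sh-Control RA and between 4.73 and 4.92 in sh-SIRT1 RA. RA arrays were below vehicle arrays throughout. The fall was -0.74 ± 0.10 (limma adjusted p = 5.69e-05) and -0.58 ± 0.09 (limma adjusted p = 0.000126). In vehicle the 3 sh-SIRT1 arrays were below the 3 sh-Control arrays, a difference of -0.32 ± 0.11 that did not pass (limma adjusted p = 0.087). The dimmer Sesn2 probe did pass there, at -0.44 ± 0.11 (limma adjusted p = 0.0231), and fell under RA by -0.91 ± 0.10 and -0.60 ± 0.09.

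Read against all genes, the members' counts were as follows. In vehicle 0 of 10 members were higher, where 4.39% of all genes were, and 0 were lower, where 4.22% were, by limma; at an unadjusted p under 0.05 there were 2, Mdm2 and Sesn2. Under RA 1 member was higher in sh-SIRT1 cells (8.70% of all genes) and 3 were lower (11.5%). RA in sh-Control cells raised 1 (19.7%) and lowered 4 (27.0%). RA in sh-SIRT1 cells raised 2 (23.2%) and lowered 6 (35.0%). For the difference of the RA effects 1 was higher (1.71%) and 0 were lower (1.83%), with 4 at an unadjusted p under 0.05. The share of all genes at that unadjusted threshold is not given here. The counts of 2 and 4 therefore cannot be set against the percentages, which are for adjusted p. With so many genes changed by RA, counts of this size among 10 members are near the background for RA in sh-Control cells.

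Over probes, 1 of 17 member probes was called in vehicle (8.42% of all probes), 7 between the lines under RA (20.7%), 10 for RA in sh-Control (45.5%), 12 for RA in sh-SIRT1 (58.1%) and 1 for the difference of the RA effects (4.41%). The median log2 difference of the members was -0.12, -0.16, -0.33, -0.47 and -0.01 in these comparisons, and that of all genes -0.01, -0.03, -0.14, -0.13 and -0.03.

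The comparisons between the lines rest on counting every array as a sample. With close arrays averaged, which leaves 2, 2, 3 and 2 units in sh-Control vehicle, sh-SIRT1 vehicle, sh-Control RA and sh-SIRT1 RA, 0 members differed between the lines under RA by limma and 1 of all genes did (Nap1l5, named after its value was seen; 1943 genes had an unadjusted p under 0.05). Cdkn1a was then at 0.65 (limma adjusted p = 0.354), Gadd45a at -0.93 (limma adjusted p = 0.354), Trp53 at -0.46 (limma adjusted p = 0.449) and Ccng1 at -0.41 (limma adjusted p = 0.566). RA still moved Bbc3, Sesn1 and Sesn2 in sh-Control cells and Trp53, Bbc3 and Sesn1 in sh-SIRT1 cells, and the RA effect on Cdkn1a in sh-SIRT1 cells was 0.72 (limma adjusted p = 0.0547).

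**Figure D3:**
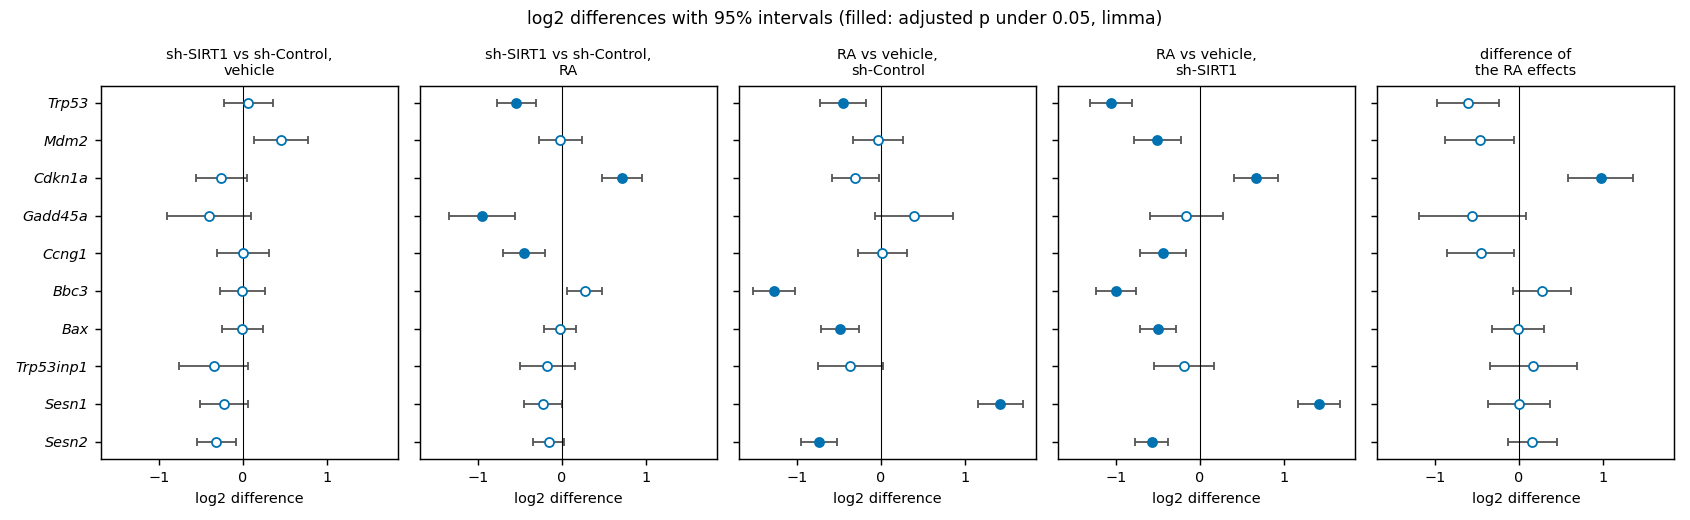
Log2 differences of the 10 genes in the 5 comparisons (x axis), with 95% intervals and filled points where the limma adjusted p is under 0.05, every array counted as a sample. No point is filled in vehicle, and Cdkn1a (0.97) is the only one filled for the difference of the RA effects.

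Across the 16 arrays, which include both treatments and are therefore not independent samples of 1 state, the levels of Bbc3, Bax and Sesn2 went together, with Pearson r from 0.86 to 0.88, and Trp53 went with Bax at 0.85. Sesn1 ran opposite to Bbc3 (r = -0.921), Bax (-0.887) and Sesn2 (-0.822). Trp53 ran opposite to 2 of its targets, Sesn1 (r = -0.786) and Cdkn1a (-0.755). The 5 genes most like Trp53 were Exosc1 (r = 0.981), Eif2a and Gtpbp4 (0.978), and Mgme1 and Gtpbp10 (0.976). Among those most like Cdkn1a were Art5 (r = 0.956), Mxra8 (0.947), Leng9 (0.915) and Ppp1r15a (0.912). These are descriptions over 16 arrays chosen from 18282 genes.

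Other targets of p53 moved both ways. Of 29 tested, 3 were higher and 1 lower in sh-SIRT1 cells in vehicle, and 3 were higher and 3 lower under RA; RA raised 7 and lowered 12 in sh-Control cells and raised 7 and lowered 14 in sh-SIRT1 cells. Of all genes, 4.39% were higher and 4.22% lower in vehicle, 8.70% and 11.5% under RA, 19.7% and 27.0% for RA in sh-Control and 23.2% and 35.0% for RA in sh-SIRT1 cells, so the counts between the lines under RA were near the share over all genes. Their median log2 difference was 0.20, 0.06, -0.20 and -0.29 in these comparisons. Tigar, a fructose bisphosphatase that lowers glycolytic flux, was lower in sh-SIRT1 cells by -0.74 ± 0.19 in vehicle (limma adjusted p = 0.0282) and -1.10 ± 0.15 under RA (limma adjusted p = 0.000324). Apaf1, the scaffold of the apoptosome, was higher in vehicle by 0.55 ± 0.12 (limma adjusted p = 0.0105), as was Ckap2, a mitotic spindle protein, by 0.49 ± 0.14 (limma adjusted p = 0.0442, a call lost under 16 of 30 alternatives). Plk3, a stress-responsive kinase, was higher under RA by 1.04 ± 0.14 (limma adjusted p = 0.000291). Gls2, a glutaminase, was lower by -0.43 ± 0.12 (limma adjusted p = 0.0258), and by -0.35 with the replicate block, which did not pass (limma adjusted p = 0.1). Trp53i11 was higher by 0.52 ± 0.16 (limma adjusted p = 0.0354, a call lost under 14 of 30 alternatives), and at -0.18 with sh-Control RA array 1 alone. It was the only list gene called for the difference of the RA effects in this group, at 1.11 ± 0.26 (limma adjusted p = 0.0326). Of all genes, 1.71% were higher and 1.83% lower in that comparison. The call of Trp53i11 there was lost under 15 of 29 alternatives, and its difference was 0.42 with array 1 alone.

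Dram1, a lysosomal protein of autophagy, was named by the rule for both RA comparisons. Its probe was well above background on all RA arrays and on none of the 6 vehicle arrays, so RA raised it at least 3.52-fold in sh-Control (measured means -7.40 and -3.68, limma adjusted p = 0.000287) and at least 2.4-fold in sh-SIRT1 cells (-7.82 and -4.44, limma adjusted p = 0.000194). Without sh-Control RA array 1, where Dram1 was at -1.43, the bound in sh-Control cells was 2.1-fold. The bounds set the mean RA level against the dimmest signal that still passed as well above background on a vehicle array. Under normexp background correction the call was lost in both lines (limma adjusted p = 0.0792 and 0.173). Plk3 rose to 282.5% of vehicle in sh-SIRT1 cells (limma adjusted p = 2.2e-06), and Pmaip1, the BH3-only protein NOXA, by 0.85 ± 0.29 in sh-Control cells (limma adjusted p = 0.026). Lowered were Gdf15, a stress cytokine, by -0.84 ± 0.33 (limma adjusted p = 0.0488, a call lost under 19 of 29 alternatives) and Pidd1, which assembles a caspase complex, by -0.74 ± 0.18 (limma adjusted p = 0.00448) in sh-Control cells, and Gls2 by -0.86 ± 0.14 and Tigar by -0.84 ± 0.17 in sh-SIRT1 cells (limma adjusted p = 0.000101 and 0.000614).

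Of 17 regulators of p53 tested, 3 rose and 10 fell under RA in sh-Control cells, where 19.7% of all genes rose and 27.0% fell. With SIRT1 knocked down 2 rose and 13 fell, where 23.2% of all genes rose and 35.0% fell. Between the lines 1 was higher and 1 lower in vehicle (4.39% and 4.22% of all genes). Under RA 0 were higher and 4 lower (8.70% and 11.5% of all genes). The medians were 0.00, -0.01, -0.32 and -0.42 in the order used above. Mdm4, the partner of Mdm2 in holding p53 down, fell under RA by -0.90 ± 0.11 (limma adjusted p = 1.6e-05) and -1.22 ± 0.10 (limma adjusted p = 2.75e-07), and was lower in sh-SIRT1 cells under RA by -0.56 ± 0.09 (limma adjusted p = 0.000921). Chek2, a checkpoint kinase that phosphorylates p53, was lower there by -0.41 ± 0.13 (limma adjusted p = 0.0447; 0.0898 with the replicate block, and a call lost under 16 of 30 alternatives) and fell under RA by -1.05 ± 0.15 in sh-SIRT1 cells (limma adjusted p = 3.21e-05). Trp53bp1, a DNA repair adaptor, fell by -0.96 ± 0.15 in sh-Control cells (limma adjusted p = 0.000132).

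Hipk2, a kinase that phosphorylates p53, was lower in sh-SIRT1 cells in vehicle by -1.33 ± 0.31 (limma adjusted p = 0.017) and rose under RA by 1.81 ± 0.29 in sh-Control (limma adjusted p = 0.000202) and 2.86 ± 0.27 in sh-SIRT1 cells (limma adjusted p = 1.04e-06), although 1 of its 2 other probes had the opposite sign under RA in each line. Cdkn2a, which encodes the Mdm2 inhibitor ARF and the kinase inhibitor p16, was higher in sh-SIRT1 cells in vehicle by 1.27 ± 0.34 (limma adjusted p = 0.0335) and rose under RA in sh-Control cells by 1.28 ± 0.32 (limma adjusted p = 0.00499). Ppp1r13b, an ASPP protein that steers p53 to cell-death genes, rose in sh-SIRT1 cells by 1.54 ± 0.19 (limma adjusted p = 1.01e-05). Ep300, an acetyltransferase of p53, was called for the difference of the RA effects at -0.76 ± 0.17 (limma adjusted p = 0.0301, a call lost under 15 of 29 alternatives). With sh-Control RA array 1 alone it was at -0.55. Of the 17 regulators tested, 0 were higher and 1 was lower for that difference, where 1.71% and 1.83% of all genes were.

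Relatives of the members moved both ways. Of 19 tested, 0 were higher and 2 lower in sh-SIRT1 cells in vehicle, 1 was higher and 0 were lower under RA, 3 rose and 4 fell under RA in sh-Control and 7 rose and 3 fell in sh-SIRT1 cells, with medians of -0.07, 0.05, -0.17 and 0.28. Of all genes, 4.39% were higher and 4.22% lower in vehicle, 8.70% and 11.5% under RA, and 23.2% and 35.0% for RA in sh-SIRT1 cells. The counts for RA in sh-Control cells were near the shares of all genes (19.7% higher and 27.0% lower). Gadd45b, the paralog of Gadd45a, rose under RA by 1.45 ± 0.23 (limma adjusted p = 0.00019) and 1.78 ± 0.21 (limma adjusted p = 8.66e-06). Trp53inp2, the paralog of Trp53inp1, rose by 1.29 ± 0.12 in sh-SIRT1 cells (limma adjusted p = 9.73e-07), and Ccng2, that of Ccng1, by 0.93 ± 0.25 in sh-Control cells (limma adjusted p = 0.00722). Bcl2l1, which encodes the survival protein BCL-XL, was the member of this list that was higher in sh-SIRT1 cells under RA, by 0.70 ± 0.10 (limma adjusted p = 0.000494).

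Of the relatives, 2 genes of BH3-only proteins were called between the lines in vehicle. Bik was at -1.32 ± 0.33 (limma adjusted p = 0.0252) and Bmf at -0.91 ± 0.23 (limma adjusted p = 0.0271) in sh-SIRT1 against sh-Control cells in vehicle. Bid was at 0.52 ± 0.17 in that comparison, which did not pass (limma adjusted p = 0.0747), and fell under RA by -0.86 ± 0.16 (limma adjusted p = 0.000625) and -1.33 ± 0.15 (limma adjusted p = 4.34e-06). Hrk was called lower under RA in sh-Control cells (limma adjusted p = 0.00937), but it was well above background on only 1 of the 4 RA arrays, and its measured difference was -0.21 under normexp (limma adjusted p = 0.883). Cdkn1b, which encodes the kinase inhibitor p27, fell by -0.63 ± 0.09 in sh-SIRT1 cells (limma adjusted p = 5.89e-05), where its relative Cdkn1a rose. The vehicle calls of Tigar, Ckap2, Apaf1, Hipk2, Cdkn2a, Bik and Bmf were all lost under normexp background correction, with limma adjusted p from 0.0626 to 0.281. Of 30 alternatives, 10 ended the vehicle call of Tigar, 9 that of Cdkn2a and 8 that of Bik. The call was lost under 7 for Hipk2, 7 for Bmf and 2 for Apaf1. With close arrays averaged, none of the list genes named here kept its call between the lines; the cause was not tested beyond the smaller number of units.

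**Figure D4:**
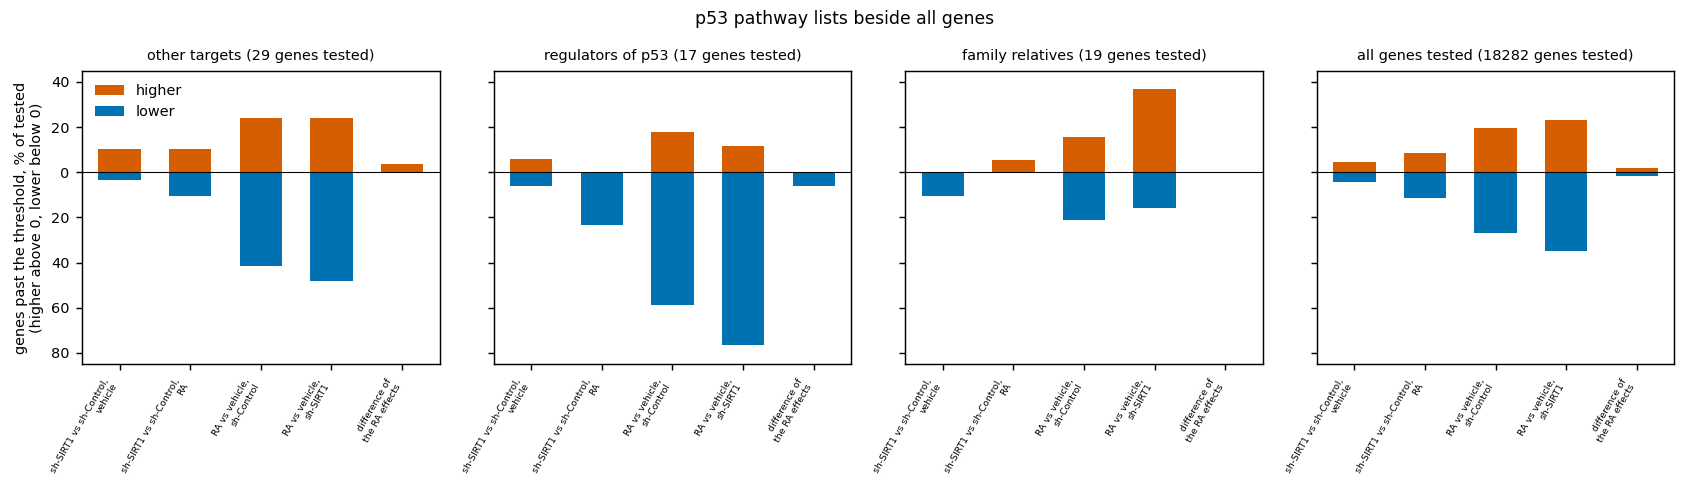
Share of genes past the threshold in each comparison (y axis: percent of genes tested, higher above 0 and lower below 0) for other p53 targets, regulators of p53, relatives of the members and all 18282 genes tested. The regulators have the largest share of lowered genes under RA (13 of 17 in sh-SIRT1 cells, where 35.0% of all genes were lower).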

How the data were processed

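The deposited files hold 1-colour intensity values from Agilent scanner output; the authors extracted them with Agilent Feature Extraction 9.5, per the submitters' processing notes, and per the file headers the processed signal had spatial and multiplicative trends removed, with surrogates for signals near background. Control spots and spots with an outlier mark were left out. Levels are log2 of the deposited processed intensity minus the array's 75th percentile, with spots of a probe averaged. Probes were kept if some group had them well above background on each of its arrays, and the brightest probe by mean stood for a gene. All 16 arrays entered 1 limma 3.58.1 fit in R 4.3.3 with 4 group means and Benjamini-Hochberg adjustment at 0.05, two-sided; probes were adjusted over all 26375 probes, and intervals are 95%. Precision is limited by the number of arrays. Probe positions are on mm7, per the file headers; promoter sequences are from RefSeq, GRCm38.p6, and were not joined to them.

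Same-numbered arrays of the lines were taken as pairs within a treatment, from the data and not from a stated design: their deviations from the group means correlated at 0.363 to 0.541 in all 7 pairs, although sh-Control RA arrays 3 and 4 correlated best with sh-SIRT1 RA array 5. RA against vehicle has no such block. On simulated data for sh-SIRT1 against sh-Control in vehicle (18229 genes), the fit recovered 63% of changes of 1 log2 unit and 94% of changes of 2, with 10 false among 167 calls. No result is given for smaller changes, and every member differed by less than 1 log2 unit between the lines. Members and lists were chosen with earlier results of these data known. Named were all members, the 2 highest and 2 lowest called genes of each list and comparison, and the 5 genes most like Trp53 and Cdkn1a, of which 1 is not reported here. Alternatives were background correction (normexp, offset 50), other scalings and filters, slide and replicate blocks, other probe rules, groups alone, each array left out, sh-Control RA array 1 alone, and, added after seeing the data, close arrays averaged.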

Additional observations from a re-analysis of the deposited data

Results flagged for a closer look

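On sh-Control RA array 1, Trp53 was at 1.65 while the nearest of the other 3 arrays was at 2.04, and Bax was at 4.03 while the nearest was at 4.25; each gap is large for a group of 4. On sh-SIRT1 RA array 1, Cdkn1a was at 0.46 and the nearest of the other 5 arrays at 0.61. Chance marks about 1 in 20 groups in this way, so with 10 members in 4 groups each, some marks of this kind come by chance. The RA effect on Cdkn1a differed between the lines by 0.97 (limma adjusted p = 0.0123).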

How the results depend on the processing

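All 18 member calls over the 5 comparisons kept their sign under every alternative run, 6 of them kept their call under every one, and 12 were lost with close arrays averaged (2 of these there only). The count of members called in vehicle, 0, was 1 under median scaling and in the fit of those groups only (Mdm2), with the replicate block (Gadd45a), with the mean of all probes (Sesn2) and with sh-Control RA array 1 alone (Mdm2), and 0 to 1 without each array in turn (1, Mdm2, without sh-Control RA array 2 or 4). Under RA, 4 members differed between the lines, 1 with array 1 alone (Ccng1) and 0 with close arrays averaged. With close arrays averaged RA moved 3 members in sh-Control (5 before) and 3 in sh-SIRT1 cells (8 before). Quantile normalization left 4 in sh-SIRT1 cells and ended the calls of Mdm2 (-0.25), Bax (-0.14), Sesn2 (-0.20) and Ccng1 (-0.08). For the difference of the RA effects the count of 1 became 0 under normexp (Cdkn1a 0.87, limma adjusted p = 0.0862), with slide as a fixed block (0.83, limma adjusted p = 0.0916), with array 1 alone and with close arrays averaged (0.95, limma adjusted p = 0.996), 2 with the replicate block (Gadd45a too) and 2 with a trended, robust spread (Trp53 too), and 1 to 3 without each array in turn: 2 without sh-Control RA array 1 or sh-SIRT1 RA array 2 (Trp53 too), 3 without sh-Control RA array 2 (Mdm2 and Ccng1 too). Between the lines under RA, Trp53 was lost with the mean of its probes (-0.28) and Ccng1 with that mean (-0.05), under normexp (-0.44) and without sh-Control RA array 3 (-0.38) or 4 (-0.39). With array 1 alone, Trp53i11 reversed to -0.18, and the calls of Gls2 (-0.39) and Chek2 (-0.15) between the lines under RA ended. For RA in sh-Control cells that fit ended the calls of Gdf15 (-0.25), Pmaip1 (1.16), Cdkn2a (1.01), Hrk (-1.59), Bid (-0.57) and Ccng2 (1.08). The cause was not tested.

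Counts over all genes moved more: in vehicle 1575, but 270 under normexp, 967 with the slide block, 3512 with the replicate block, 2364 with array 1 alone, 736 at the least without 1 array and 0 with close arrays averaged (limma; 1764 at an unadjusted p under 0.05); between the lines under RA 3685, but 1123 under normexp, 2028 with array 1 alone and 1 with close arrays averaged; for RA in sh-Control cells 8534, but 4644 under normexp and 3918 with close arrays averaged, and 4460 instead of 10641 in sh-SIRT1 cells; for the difference 647, but 22 under normexp, 276 without the filter, 92 with the slide block, 1638 with the replicate block, 207 with array 1 alone, 207 to 1846 without 1 array and 0 with close arrays averaged (limma; 834 at an unadjusted p under 0.05). Median scaling moved the median of all genes from -0.01 to 0.12 in vehicle, from -0.14 to -0.29 for RA in sh-Control from -0.13 to -0.42 in sh-SIRT1 cells and from -0.03 to -0.16 for the difference, and the share of calls that were lower from 49.0% to 28.0%, 57.9% to 70.6%, 60.1% to 75.7% and 51.8% to 69.1%; normexp left 31.8% lower for the difference. The replicate block ended no call of a member.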
